A study of Mus musculus with 17 samples.

Results

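The 10 genes described here encode transcription factors and bound cofactors that direct erythroid development: Gata1, Klf1, Tal1, Nfe2, Zfpm1, Lmo2, Ldb1, Gfi1b, Bcl11a and Myb. They were taken by gene name from the raw count tables of 2 mouse models of erythroleukaemia, which list 26029 genes for model 1 and 24659 for model 2. All 10 were present in both tables and had enough reads to be tested.

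GATA1 binds GATA motifs and switches on most red cell genes, while FOG1, the product of Zfpm1, binds GATA1 and not DNA. LMO2 and LDB1 bridge GATA1 and TAL1 into a complex that holds distant enhancers and promoters together. KLF1 binds CACCC motifs, including that of the adult beta-globin promoter, GFI1B and BCL11A act mainly as repressors, NFE2 works at the globin locus and in platelet formation, and MYB keeps erythroid progenitors dividing. SPI1 (PU.1), the factor encoded by the transgene of these mice, is known to bind GATA1 and to oppose it.

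RNA was sequenced from erythroid blasts grown in culture with erythropoietin (EPO) and diluted 2 days before extraction, and the study asked what loss of FANCA, a component of the Fanconi anaemia DNA repair pathway, does to preleukaemic cells and to their progression. Every mouse carried the Spi1 transgene (TgSpi1), controls included, so no group was free of it. Each sample is named by the end of its label, which gives stage and mouse. Model 1 (strain DBA2JxFVB/N) had 4 preleukaemic mice that kept Fanca (TgSpi1FA+/+: preleukemic_445, preleukemic_479, preleukemic_451 and preleukemic_138). It also had 3 preleukaemic mice that lacked it (TgSpi1FA-/-: preleukemic_77, preleukemic_224 and preleukemic_40) and 3 leukaemic mice that lacked it (leukemic_26, leukemic_28 and leukemic_39). Model 2 (strain DBA2J, Fanca intact) had 4 TgSpi1 preleukaemic mice (preleukemic_633, preleukemic_663, preleukemic_812 and preleukemic_837) and 3 leukaemic ones (leukemic_601, leukemic_606 and leukemic_921), whose leukaemia arose after serial transfusion of blood. Values are given below in this order of mice. Strain, library protocol and way of progression differ between the models and cannot be told apart. The paper reports an activating Kit mutation in blasts of leukemic_26 and an Nras mutation in those of leukemic_28 and leukemic_39. In TgSpi1FA+/+ preleukaemic mice it reports a Jak2 mutation in preleukemic_445 and preleukemic_451. It also reports Kit or Nras mutations at low allele frequency in preleukemic_445, preleukemic_479 and preleukemic_138. For model 2 it describes leukaemic cells with activating Kit mutations. The part of these mutations in the results was not tested. For the 3 TgSpi1FA-/- preleukaemic mice the title and the cell type label say preleukaemic, while the source name and the count columns say leukaemic. The title was followed, and every comparison with this group rests on that.

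Library totals ran from 29964576 to 38217654 counts in model 1 and from 37726753 to 40514205 in model 2, and the lowest count of any of the 10 genes in any library was 1238 (Zfpm1, leukemic_921). Fanca stood at 28.2 to 83.4 CPM (read counts scaled to a common library size) in the TgSpi1FA+/+ libraries of model 1 and at 0.614 to 2.3 CPM in the TgSpi1FA-/- libraries. Among erythroid markers, the transferrin receptor gene Tfrc stood at 1213 to 2555 CPM and Epor at 60.8 to 309 CPM over all libraries. The markers of later maturation reached low levels in some libraries, with lowest values of 1.69 CPM for Alas2, 1.64 CPM for Slc4a1 and 17.8 CPM for Hba-a1, all in leukaemic mice of model 2. The libraries preleukemic_445 and preleukemic_479 were far more alike (chi-square per degree of freedom 8.531) than any other pair within a group of model 1 (114.2 to 372). In a second deposited count table of 7 model 1 mice this pair stood at 349.7, the lowest within a group there (other pairs 393.4 to 742.4). The pair was sequenced deeper in that table (95863695 and 125847411 counts against 32659303 and 32075503). This measure rises with depth, so 349.7 and 8.531 are not on 1 scale. The library labelled preleukemic_479 in the second table was the closest match of both preleukemic_445 and preleukemic_479. Tests between groups that rest on the pair are therefore also given, for the 10 genes, with it counted as 1 sample. For the comparison of the TgSpi1FA-/- groups and for that of the models, this was added after the data were seen.

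The genes were among the more abundant transcripts. In TgSpi1FA+/+ preleukaemic cells they stood above 77.4% (Bcl11a) to 99.0% (Lmo2) of all tested genes in CPM per kilobase of exon. Per kilobase of exon, Lmo2 ranked 1st and Bcl11a 10th of the 10 in all 5 groups, and the order between them shifted. Klf1 ranked 2nd in both preleukaemic groups of model 1, at 185 ± 9.46 (SD, n = 4) and 216 ± 22 CPM per kb (n = 3), and 5th in the TgSpi1FA-/- leukaemic group at 89.5 ± 21.5 CPM per kb (n = 3). Gata1 ranked 3rd, 3rd and 2nd in the same groups, at 181 ± 2.6, 186 ± 43.5 and 148 ± 10.4 CPM per kb. In the TgSpi1FA-/- leukaemic group the ranges of Lmo2 (111 to 203 CPM per kb) and Gata1 (141 to 159.5) overlapped, so their order was within the spread. The ranges of the 1st and 2nd gene also overlapped in TgSpi1FA+/+ preleukaemic mice (Lmo2 and Klf1) and in both groups of model 2 (Lmo2 and Gata1). In model 2 Zfpm1 stood 8th at 44.4 ± 8.88 CPM per kb in preleukaemic mice and 9th at 14 ± 5.31 in leukaemic mice, where Gata1 was 2nd at 144.5 ± 20.8 and 94.1 ± 0.284. Levels of the models come from separately normalised tables and were not tested against each other.

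**Figure D1:**
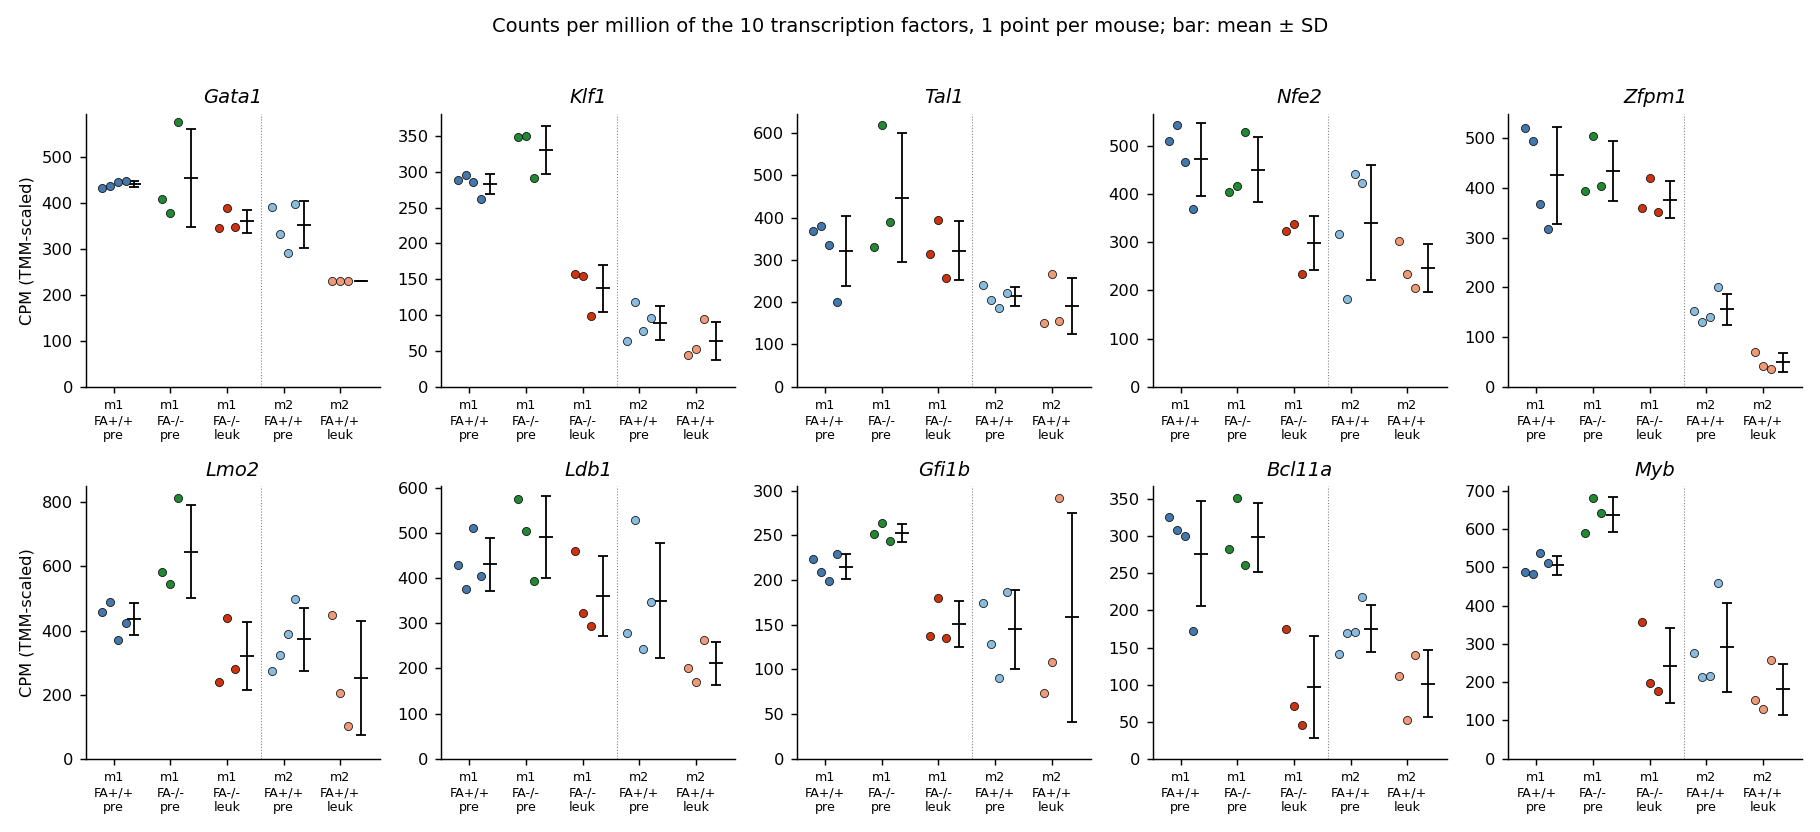
CPM of the 10 genes by mouse (points) with the group mean and SD, for the 3 groups of model 1 and the 2 of model 2. The TgSpi1FA-/- leukaemic mice lay below every TgSpi1FA-/- preleukaemic mouse for Klf1, Nfe2, Lmo2, Gfi1b, Bcl11a and Myb, and the leukaemic mice of model 2 below every preleukaemic one for Zfpm1, Gata1 and Bcl11a.

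**Figure D2:**
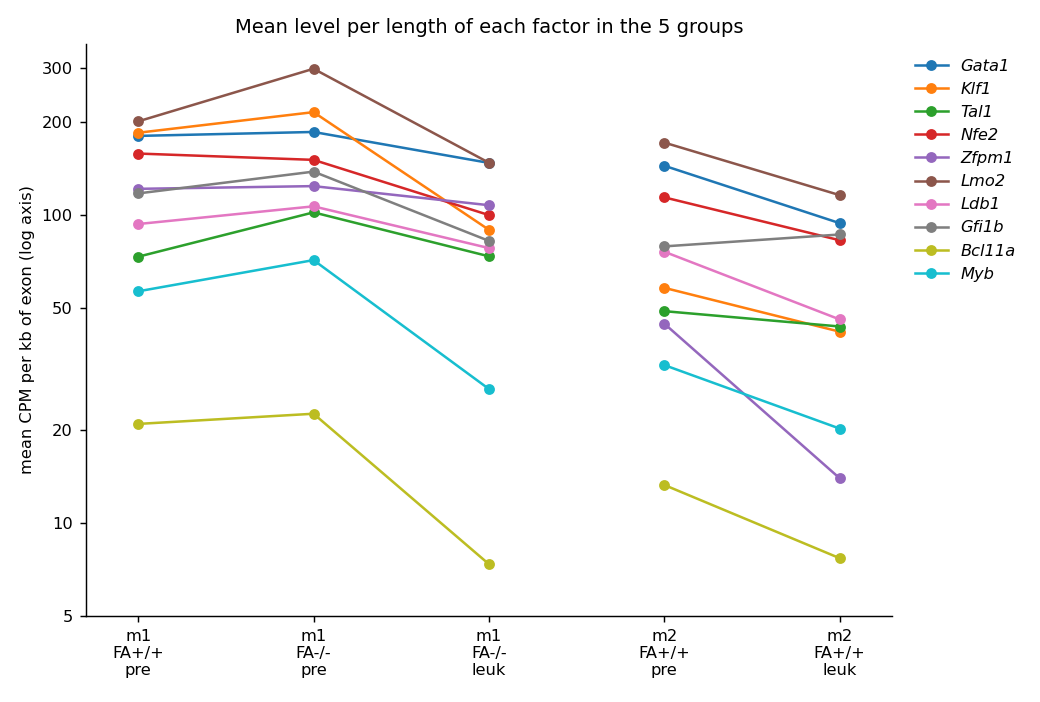
Mean CPM per kilobase of exon of each of the 10 genes in the 5 groups, on a log axis, joined by lines. Lmo2 was at the top and Bcl11a at the bottom in all groups, and Klf1 moved from 2nd place to 5th between the TgSpi1FA-/- preleukaemic and leukaemic groups.

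TgSpi1FA-/- leukaemic cells had less Klf1, Myb, Gfi1b, Lmo2 and Bcl11a RNA than TgSpi1FA-/- preleukaemic cells, by 1.68-fold to 3.08-fold. These 5 of the 10 genes passed the test, all lower, where 13.3% of the 13393 genes tested passed in either direction and 6.49% passed lower. A gene passed at an adjusted p below 0.05 and a fold change of at least 1.5, and all adjusted p values are from edgeR's quasi-likelihood test with Benjamini-Hochberg adjustment over all genes unless another tool is named. All 10 log2 fold changes were below 0, against 50.1% of all genes, and their median was -0.67 (0.0 over all genes). In bulk RNA, fewer cells of a type and less RNA per cell cannot be told apart.

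Klf1, on chromosome 8 (chr8:84901928-84905291, plus strand, GRCm38, as are all positions below), had the lowest adjusted p of the 10. The 300 bases around its RefSeq start (GRCm38.p6, chr8:84901732-84902031, plus strand, 250 before the start and 50 after it) are shown because GATA1 is known to act on this promoter. Capitals mark GATA motifs (AGATAA, with A or T as its first base and A or G as its last) and CACCC motifs on either strand, so that TTATCT and GGGTG are in capitals too, and none of the marked matches overlap each other.
Klf1: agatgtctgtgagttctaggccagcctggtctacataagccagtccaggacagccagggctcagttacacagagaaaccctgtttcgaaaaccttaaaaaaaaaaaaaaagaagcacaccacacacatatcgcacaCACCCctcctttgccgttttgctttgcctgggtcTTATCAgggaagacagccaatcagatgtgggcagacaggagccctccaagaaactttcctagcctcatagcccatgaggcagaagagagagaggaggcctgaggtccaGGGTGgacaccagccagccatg
It held 1 GATA motif at position -80 from the start, 2 CACCC motifs and 1 E-box (CAGNTG, the letters bound by TAL1 and its partners, not in capitals). Of 32851 promoter windows of this length, 29.8% held a GATA motif, 57.5% a CACCC motif and 51.4% an E-box. A match describes letters in the window and is no evidence of binding.

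Klf1 stood at 289, 295, 285 and 262 CPM in TgSpi1FA+/+ preleukaemic mice, at 349, 350.4 and 291 CPM in TgSpi1FA-/- preleukaemic mice and at 158, 154 and 99.1 CPM in TgSpi1FA-/- leukaemic mice. The 7 preleukaemic libraries formed 1 range and the 3 leukaemic ones lay well below it. The log2 fold change between the TgSpi1FA-/- groups was -1.27 (SE 0.18, 95% interval -1.67 to -0.87, adjusted p = 0.00626), or 2.41-fold lower. Klf1 passed with any 1 of the 10 libraries left out, with adjusted p up to 0.0325.

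Gata1 (chrX:7959260-7978071, minus strand) stood at 433, 437, 444.6 and 446 CPM in TgSpi1FA+/+ preleukaemic mice, at 408, 378 and 575 CPM in TgSpi1FA-/- preleukaemic mice and at 344, 389 and 346 CPM in TgSpi1FA-/- leukaemic mice. The TgSpi1FA+/+ libraries were nearly equal, and the TgSpi1FA-/- groups overlapped at preleukemic_224 and leukemic_28. Its log2 fold change of -0.33 (SE 0.16, 95% interval -0.68 to 0.02, adjusted p = 0.17) did not pass. Zfpm1 (chr8:122282141-122337251, plus strand) stood at 522, 495, 368 and 318 CPM, at 395, 504 and 405 CPM and at 359.8, 419.7 and 351 CPM in the same 3 groups. These ranges overlapped, and its log2 fold change was -0.21 (SE 0.2, 95% interval -0.66 to 0.25, adjusted p = 0.52).

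Of the bridging genes of the GATA1 and TAL1 complex, Lmo2 passed the test and Ldb1 did not. Lmo2 (chr2:103957986-103981878, plus strand) stood at 458.5, 490.0, 372 and 424 CPM in TgSpi1FA+/+ preleukaemic mice, at 581.5, 544 and 813 CPM in TgSpi1FA-/- preleukaemic mice and at 239.9, 439 and 281 CPM in TgSpi1FA-/- leukaemic mice. All 3 leukaemic libraries were below the TgSpi1FA-/- preleukaemic ones, but leukemic_28 lay within the TgSpi1FA+/+ range. The log2 fold change between the TgSpi1FA-/- groups was -1.01 (SE 0.24, adjusted p = 0.0295), or 2.02-fold lower. Lmo2 lost its call without leukemic_26, leukemic_39, preleukemic_77, preleukemic_224 or preleukemic_40, with adjusted p of 0.0513 to 0.086, and with only the compared groups fitted (adjusted p = 0.0799).

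Ldb1 (chr19:46031570-46045214, minus strand) stood at 429, 376, 512 and 404 CPM, at 576, 505 and 395 CPM and at 461, 323 and 295 CPM in the 3 groups of model 1. The sample leukemic_26 lay among the preleukaemic libraries and the other 2 leukaemic ones below them. The log2 fold change of Ldb1 was -0.45 (SE 0.21, adjusted p = 0.168), and without leukemic_26 it was -0.66 and passed (adjusted p = 0.0471). Tal1 (chr4:115056426-115071755, plus strand), the basic helix-loop-helix factor of the complex, stood at 367, 381, 335 and 199.6 CPM, at 329.7, 619 and 390.5 CPM and at 312.5, 395 and 257 CPM. Its groups overlapped broadly, and its log2 fold change was -0.47 (SE 0.3, 95% interval -1.15 to 0.21, adjusted p = 0.309).

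Gfi1b (chr2:28609450-28621982, minus strand) encodes a zinc finger repressor that GATA1 is known to activate. Its RefSeq promoter window (chr2:28621933-28622232, minus strand) held 1 GATA motif at position -120 and 1 CACCC motif, and is shown beside that of Klf1 for this reason.
Gfi1b: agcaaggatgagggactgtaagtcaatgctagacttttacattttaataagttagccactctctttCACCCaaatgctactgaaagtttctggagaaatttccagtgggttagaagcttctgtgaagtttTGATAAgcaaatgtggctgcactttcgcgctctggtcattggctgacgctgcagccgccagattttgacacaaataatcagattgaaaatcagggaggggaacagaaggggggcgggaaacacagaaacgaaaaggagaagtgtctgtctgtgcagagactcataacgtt
Gfi1b stood at 223, 209, 198.5 and 229.7 CPM in TgSpi1FA+/+ preleukaemic mice, at 251.5, 264 and 244 CPM in TgSpi1FA-/- preleukaemic mice and at 137, 180.5 and 135 CPM in TgSpi1FA-/- leukaemic mice. The groups did not overlap, the TgSpi1FA-/- preleukaemic mice being highest and the leukaemic ones lowest. Its log2 fold change between the TgSpi1FA-/- groups was -0.75 (SE 0.13, 95% interval -1.05 to -0.45, adjusted p = 0.0127), or 1.68-fold lower, and the call was lost without preleukemic_224 (adjusted p = 0.0503).

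Nfe2 (chr15:103248212-103258403, minus strand) stood at 510.3, 544, 468 and 370.0 CPM, at 406, 418 and 529 CPM and at 323, 339 and 234 CPM in the 3 groups of model 1. The leukaemic libraries were below both preleukaemic groups. Its log2 fold change was -0.59 (SE 0.19, 95% interval -1.03 to -0.16), which did not pass (adjusted p = 0.0697).

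Myb (chr10:21124935-21160984, minus strand), the progenitor gene of the 10, had a promoter window (chr10:21160935-21161234, minus strand) with no GATA motif, 1 CACCC motif and 1 E-box. It is shown beside the windows of Klf1 and Gfi1b, which hold 1 GATA motif each. Among windows not shown, 1 of Tal1 held 1 GATA motif and 1 of Ldb1 held 2, though neither gene passed between the TgSpi1FA-/- groups. The window of Bcl11a, which passed, held none.
Myb: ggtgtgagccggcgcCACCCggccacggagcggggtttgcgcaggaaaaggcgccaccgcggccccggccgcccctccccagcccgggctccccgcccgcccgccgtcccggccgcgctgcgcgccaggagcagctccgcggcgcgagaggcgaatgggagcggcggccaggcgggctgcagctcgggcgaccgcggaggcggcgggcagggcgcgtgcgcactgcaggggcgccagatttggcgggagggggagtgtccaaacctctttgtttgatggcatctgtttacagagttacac
Myb stood at 489, 482, 538 and 511 CPM in TgSpi1FA+/+ preleukaemic mice, at 591, 682 and 641 CPM in TgSpi1FA-/- preleukaemic mice and at 357, 197 and 176 CPM in TgSpi1FA-/- leukaemic mice. The 3 groups did not overlap, and leukemic_26 was the highest of the leukaemic ones. The log2 fold change between the TgSpi1FA-/- groups was -1.39 (SE 0.24, 95% interval -1.93 to -0.85, adjusted p = 0.0119), or 2.62-fold lower, and the call was lost without leukemic_28 (adjusted p = 0.0539).

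Bcl11a (chr11:24078056-24174123, plus strand), whose product silences embryonic and fetal globin genes, stood at 326, 309, 300.0 and 172 CPM in TgSpi1FA+/+ preleukaemic mice, at 283, 351 and 261 CPM in TgSpi1FA-/- preleukaemic mice and at 175, 70.5 and 45.6 CPM in TgSpi1FA-/- leukaemic mice. All leukaemic libraries lay below the TgSpi1FA-/- preleukaemic ones, leukemic_26 nearest to them. Its fold change was the largest of the 10 and had the widest interval, at -1.62 on the log2 scale (SE 0.45, 95% interval -2.64 to -0.60, adjusted p = 0.0444), or 3.08-fold lower. It passed in 2 of the 10 fits with 1 library left out, those without preleukemic_138 or leukemic_26, and in the other fits the adjusted p reached 0.15. With preleukemic_445 and preleukemic_479 counted as 1 sample, Bcl11a no longer passed (adjusted p = 0.0651) and the other 4 genes did, with adjusted p of 0.0165 for Klf1, 0.0244 for Myb, 0.0256 for Gfi1b and 0.046 for Lmo2.

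Of the 10 genes, 6 (Klf1, Nfe2, Lmo2, Gfi1b, Bcl11a and Myb) had no overlap between the TgSpi1FA-/- groups, all lower in leukaemic cells, where 19.3% of all genes did not overlap and were lower. The median log2 fold change of tested genes within 5 Mb on either side was -0.26 for Klf1 (87 genes, 13 of them past the test), -0.24 for Myb (42 genes) and -0.02 to -0.01 for Gfi1b, Lmo2 and Bcl11a. Spi1 itself stood at 669 to 779.7 CPM in TgSpi1FA-/- preleukaemic mice and at 629, 219 and 3.88 CPM in leukemic_26, leukemic_28 and leukemic_39. The sample leukemic_39, nearly without Spi1 RNA, had the lowest Klf1, Nfe2, Bcl11a, Myb, Gfi1b, Ldb1, Tal1 and Zfpm1 of the leukaemic mice, and leukemic_26, with the most, had the lowest Gata1 and Lmo2. But leukemic_39 and leukemic_26 were close for Gfi1b (134.8 and 137.2 CPM), Zfpm1 (351.4 and 359.8) and Gata1 (346.3 and 344.1). The part of Spi1 in these results was not tested.

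**Figure D3:**
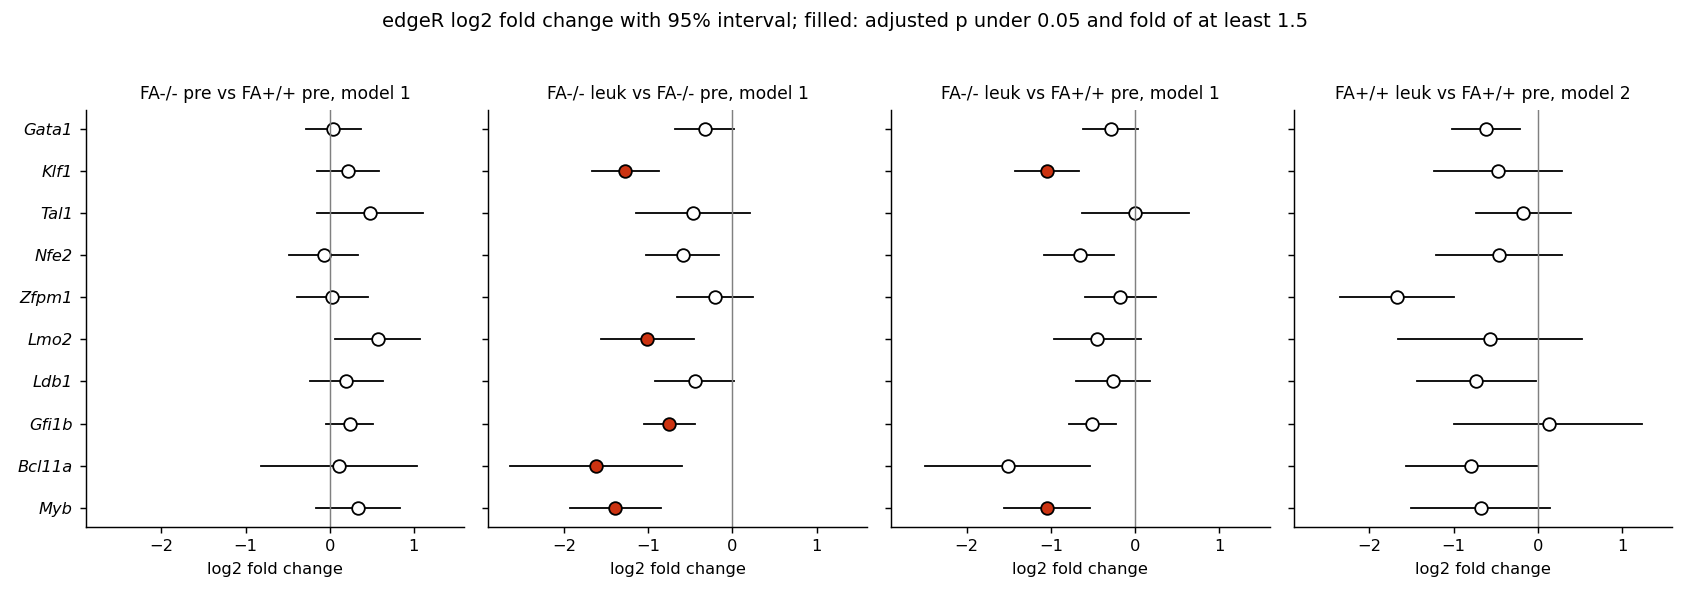
Log2 fold changes of the 10 genes with 95% intervals in the comparisons of model 1 and model 2, with filled points for genes past the test. Between the TgSpi1FA-/- groups the intervals of Klf1, Myb, Gfi1b, Lmo2 and Bcl11a lay below 0, as did that of Nfe2, which did not pass. In model 2, where none passed, the interval of Zfpm1 ran from -2.35 to -0.99, and those of Gata1, Ldb1 and Bcl11a also lay below 0.

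None of the 10 genes passed between TgSpi1FA-/- and TgSpi1FA+/+ preleukaemic cells, which differ in Fanca, where 0.00747% of all genes (1 gene, the ribosomal protein pseudogene Rpsa-ps10) passed. Fanca itself did not pass (log2 fold change -5.26, adjusted p = 0.0759). Of the 10 log2 fold changes, 9 were above 0, with a median of 0.21, while 49.3% of all genes were below 0. Lmo2 was the only gene of the 10 at an unadjusted p below 0.05, a level that 8.65% of all genes reached, with a log2 fold change of 0.57 (SE 0.22, 95% interval 0.06 to 1.07, adjusted p = 0.548). DESeq2 also called none of the 10, nor did the fit with preleukemic_445 and preleukemic_479 counted as 1 sample, where Lmo2 had a log2 fold change of 0.61 (adjusted p = 0.89). The values of Lmo2, Gfi1b and Myb given above did not overlap between the 2 preleukaemic groups, all higher in TgSpi1FA-/- mice, where 4.26% of all genes did so. The log2 fold changes were 0.24 for Gfi1b (adjusted p = 0.632), 0.34 for Myb (adjusted p = 0.7), 0.22 for Klf1 (adjusted p = 0.746) and 0.04 for Gata1 (adjusted p = 0.966). At 4 against 3 mice these intervals are wide: that of Myb ran from -0.16 to 0.83.

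TgSpi1FA-/- leukaemic cells were also set against TgSpi1FA+/+ preleukaemic cells, a comparison that shares its leukaemic libraries with the one between the TgSpi1FA-/- groups. Klf1 and Myb passed, 2 of the 10, where 7.01% of all genes passed and 3.46% passed lower. Klf1 had a log2 fold change of -1.05 (SE 0.17, adjusted p = 0.0152) and Myb one of -1.05 (SE 0.23, adjusted p = 0.0306), both 2.07-fold lower. Gfi1b reached an adjusted p of 0.0421 at 1.43-fold lower, under the fold threshold. Neither call stood with preleukemic_445 and preleukemic_479 counted as 1 sample (adjusted p = 0.0513 for Klf1 and 0.0768 for Myb). Without preleukemic_445, preleukemic_479 or leukemic_28 none of the 10 passed, and none passed in the second count table of these mice, where the log2 fold change was -1.34 for Klf1 (adjusted p = 0.127) and -1.04 for Myb (adjusted p = 0.217). Gata1, Klf1, Nfe2, Gfi1b and Myb did not overlap between these groups, lower in leukaemic cells, where 12.9% of all genes did so.

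In model 2, where Fanca was intact in both groups, none of the 10 genes passed edgeR's test between leukaemic and preleukaemic cells, and 0.0% of the 12970 genes tested passed, the smallest adjusted p being 0.162. An unadjusted p below 0.05 was reached by 4 of the 10 genes and by 19.9% of all genes. Of the 10 log2 fold changes, 9 were below 0, against 51.6% of all genes, with a median of -0.59 (-0.03 over all genes). DESeq2 called 470 genes and 1 of the 10, Zfpm1.

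Zfpm1 is shown with its RefSeq promoter window (chr8:122281891-122282190, plus strand), which held 3 CACCC motifs and no GATA motif or E-box, because it had the lowest log2 fold change of the 10 in model 2 and was the only one of them to pass the test of a difference between the models.
Zfpm1: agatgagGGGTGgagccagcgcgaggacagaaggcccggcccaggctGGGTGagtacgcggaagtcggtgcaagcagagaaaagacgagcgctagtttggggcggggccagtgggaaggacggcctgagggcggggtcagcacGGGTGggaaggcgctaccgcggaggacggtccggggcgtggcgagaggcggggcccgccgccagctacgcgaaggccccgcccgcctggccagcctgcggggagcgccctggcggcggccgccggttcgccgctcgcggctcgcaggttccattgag
Zfpm1 stood at 153, 129, 140.1 and 199.9 CPM in preleukaemic mice of model 2 and at 70.1, 41.7 and 35.1 CPM in leukaemic mice. The groups were well apart, with the lowest preleukaemic library (preleukemic_663) above the highest leukaemic one (leukemic_601). The log2 fold change was -1.67 (SE 0.29, 95% interval -2.35 to -0.99, unadjusted p = 0.000514, adjusted p = 0.162), or 3.18-fold lower, and DESeq2 gave an adjusted p of 0.00101. Genes within 5 Mb of Zfpm1 had a median log2 fold change of -0.19 (94 genes). Spi1 stood at 215 to 332 CPM in preleukaemic and 103 to 187.5 CPM in leukaemic mice of model 2, and its part was not tested.

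Gata1 stood at 391, 332, 289.7 and 396 CPM in preleukaemic mice of model 2 and at 229.5, 229 and 230.0 CPM in leukaemic mice. The leukaemic libraries were almost equal and lay below all preleukaemic ones. Its log2 fold change was -0.62 (SE 0.17, 95% interval -1.02 to -0.21, adjusted p = 0.162). Per kilobase, the ratio of Gata1 to Zfpm1 was 3.67, 3.69, 2.97 and 2.85 in the preleukaemic mice and 4.7, 7.88 and 9.42 in the leukaemic mice of model 2, while it ran from 1.08 to 2.04 over the 10 libraries of model 1.

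Bcl11a stood at 142, 169, 171 and 218 CPM in preleukaemic mice of model 2 and at 111, 52.5 and 140.5 CPM in leukaemic mice. The sample leukemic_921 lay just under the lowest preleukaemic library, and the log2 fold change of Bcl11a was -0.79 (95% interval -1.56 to -0.01, adjusted p = 0.243). With Zfpm1 and Gata1, Bcl11a made 3 of the 10 genes with no overlap, lower in leukaemic mice, where 10.4% of all genes did so.

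The other genes of the 10 overlapped between the groups of model 2. Klf1 stood at 63.0, 119, 77.4 and 96.1 CPM in preleukaemic and at 44.4, 53.0 and 94.6 CPM in leukaemic mice, with leukemic_921 among the preleukaemic libraries and a log2 fold change of -0.47 (adjusted p = 0.456). Myb stood at 276.5, 213, 215 and 459 CPM and at 154, 131 and 258 CPM, again with leukemic_921 within the preleukaemic range (log2 fold change -0.68, adjusted p = 0.325). The sample leukemic_921 was the highest of all 7 for Gfi1b, which stood at 174, 128, 90.1 and 187 CPM in preleukaemic and at 73.8, 108 and 292 CPM in leukaemic mice. The log2 fold change of Gfi1b was 0.13 (adjusted p = 0.907) with leukemic_921 and -0.67 without it.

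Lmo2 spread widely in the leukaemic mice of model 2, at 448, 205 and 101 CPM against 275, 324, 390.3 and 499 CPM in preleukaemic mice (log2 fold change -0.57, adjusted p = 0.542). Ldb1 stood at 279.7, 530.0, 243 and 347.5 CPM and at 200.1, 169.8 and 263 CPM (log2 fold change -0.73, adjusted p = 0.242). The sample leukemic_601 was high for Lmo2 but not for Ldb1, its partner. Nfe2 stood at 317, 182, 441.5 and 424 CPM and at 303, 234 and 206 CPM (log2 fold change -0.46, adjusted p = 0.46), and Tal1 at 240.5, 206, 186.5 and 221 CPM and at 149.5, 266 and 155 CPM (log2 fold change -0.17, adjusted p = 0.738). The sample preleukemic_663 was the lowest of all 7 for Nfe2 and leukemic_606 the highest for Tal1.

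The leukaemic change of model 1 (between the TgSpi1FA-/- groups) was tested against that of model 2 in 1 fit over all 17 libraries. Zfpm1 passed, 1 of the 10, where 4.61% of the 14597 genes tested passed and 2.76% passed higher. Its change in model 1 minus its change in model 2 was 1.45 on the log2 scale (SE 0.35, 95% interval 0.72 to 2.19, adjusted p = 0.0365), so that the fold changes differed by 2.74-fold. With preleukemic_445 and preleukemic_479 counted as 1 sample the adjusted p was 0.0485. The call stood in 8 of the 17 fits with 1 library left out and was lost without preleukemic_445, preleukemic_77, preleukemic_224, preleukemic_40, leukemic_28, leukemic_39, preleukemic_633, leukemic_606 or leukemic_921 (adjusted p up to 0.0857), and without a filter on low counts (adjusted p = 0.0509), the difference itself staying between 1.27 and 1.78. For Klf1 the difference was -0.81 (adjusted p = 0.201), for Myb -0.72 (adjusted p = 0.317), for Bcl11a -0.84 (adjusted p = 0.383) and for Gfi1b -0.91 (adjusted p = 0.29), so that calls in model 1 alone do not show that these genes changed differently in the models. Zfpm1 lies 0.93 Mb from Fanca on chromosome 8 and Klf1 38.36 Mb from it, and the part of this nearness in the results was not tested.

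Gata2, the GATA factor that GATA1 replaces during erythroid maturation, ranged more widely than the 10 genes. It stood at 42.8, 25.96, 6.4 and 365 CPM in TgSpi1FA+/+ preleukaemic mice, at 128, 3.77 and 139 CPM in TgSpi1FA-/- preleukaemic mice and at 89.3, 463 and 689.7 CPM in TgSpi1FA-/- leukaemic mice. Per kilobase, the ratio of Gata1 to Gata2 was 22.4, 37.3, 154 and 2.71, then 7.06, 222 and 9.14, and in the leukaemic mice 8.53, 1.86 and 1.11. The samples preleukemic_138 and preleukemic_77 had ratios within the leukaemic range, and the log2 fold change of Gata2 (2.20, SE 1.54, adjusted p = 0.359) did not pass.

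**Figure D4:**
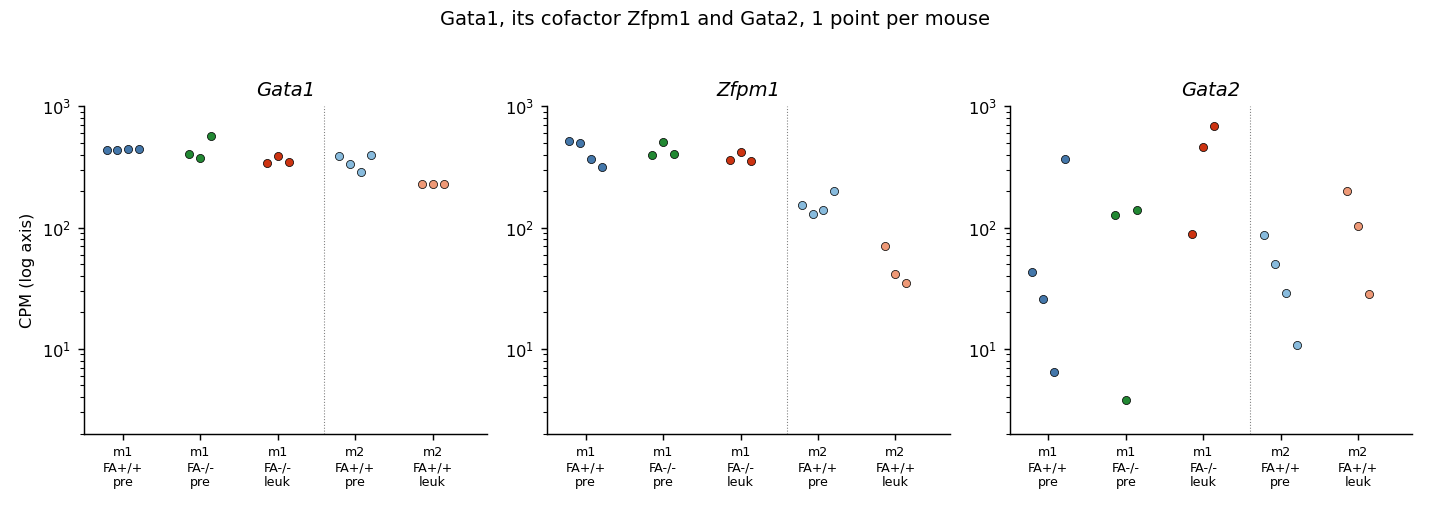
CPM of Gata1, Zfpm1 and Gata2 by mouse in the 5 groups, on a log axis. Gata1 stayed between 229 and 575 CPM over all 17 libraries, Zfpm1 stood at 35.1 to 70.1 CPM in the leukaemic mice of model 2, and Gata2 ran from 3.77 to 689.7 CPM.

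Lists of genes that work with the 10 were described over the same fits. None of 12 further complex partners passed between the TgSpi1FA-/- groups (median log2 fold change -0.01), among them the TAL1 partner Tcf3 (-0.49, adjusted p = 0.0359, under the fold threshold) and Lmo4 (4.38, adjusted p = 0.0892). None of 16 corepressors that these factors recruit passed in model 1 (median -0.05) or in model 2 (median -0.44, with 14 of 16 below 0). None of the 7 tested of 8 partners and relatives of NFE2 passed.

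Of 16 other erythroid and progenitor regulators, 13 were tested between the TgSpi1FA-/- groups and 4 passed (3 to 5 with 1 library left out), where 13.3% of all genes passed. Zbtb7a, which encodes LRF, the other main repressor of fetal globin beside BCL11A, stood at 155, 172.5 and 175 CPM in preleukaemic and 59.5, 71.7 and 46.2 CPM in leukaemic mice (log2 fold change -1.50, adjusted p = 0.00535). Klf3, a repressor that KLF1 is known to activate, stood at 171.5, 271 and 148 CPM and at 91.6, 69.4 and 65.5 CPM (-1.38, adjusted p = 0.00986). Both fell with no overlap between the groups. Ikzf1 (IKAROS), at 536, 624 and 587 CPM and at 319, 261 and 182 CPM, fell too (-1.20, adjusted p = 0.0112). Hhex, a progenitor homeobox gene that is also on the list of genes GATA1 represses, rose from 29.6, 14.8 and 7.33 CPM to 59.4, 118 and 124 CPM (2.54, adjusted p = 0.0309). In model 2 the log2 fold changes were -0.95 for Zbtb7a (adjusted p = 0.194), -1.08 for Klf3 (adjusted p = 0.208) and -0.49 for Ikzf1 (adjusted p = 0.231).

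Of 38 erythroid targets of GATA1 and KLF1, 36 were tested and 5 passed between the TgSpi1FA-/- groups, all lower, a share near the 13.3% of all genes that passed (6.49% passed lower), with a median log2 fold change of -0.38 and 24 below 0. They were Ermap (-2.19, adjusted p = 0.00241), Ank1 (-0.94, adjusted p = 0.0238), which encodes the membrane protein ankyrin, the blood group gene Rhd (-1.76, adjusted p = 0.0241), the adult beta-globin gene Hbb-bt (-5.94, adjusted p = 0.0265) and Tspo2 (-5.77, adjusted p = 0.0415). Tspo2 had 25, 3 and 0 counts in the leukaemic libraries, so its fold change depends on the fit's handling of low counts. The number of targets past the test ran from 2 (without preleukemic_224) to 7 (without leukemic_26), and was 1 with only the compared groups fitted. In model 2 none of the 36 passed, with 34 below 0 and a median of -1.08. Of 8 genes that GATA1 is known to repress, 7 were tested and 1 passed, Hhex, a share near that of all genes. No gene of this list passed without preleukemic_224, preleukemic_40, leukemic_28 or leukemic_39.

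Among 3 embryonic globins, Hbb-bh1 had 3, 2 and 0 counts in TgSpi1FA-/- preleukaemic mice and 588, 71844 and 36960 counts in leukemic_26, leukemic_28 and leukemic_39, or 16.1, 1834 and 936.5 CPM (adjusted p = 0.0176). TgSpi1FA+/+ preleukaemic mice had 22, 10, 2 and 344 counts of Hbb-bh1, and preleukemic_138, the highest of these 4, also had 92.1 CPM of Hbb-y and the lowest Bcl11a of its group. Among the leukaemic mice Hbb-bh1 was highest in those where Bcl11a was lowest, leukemic_28 and leukemic_39. Of these, leukemic_39 had the lower Bcl11a (45.6 against 70.5 CPM) and also the lower Hbb-bh1. The part of Bcl11a in the level of Hbb-bh1 was not tested. The call of Hbb-bh1 was lost without preleukemic_77, preleukemic_224, preleukemic_40 or leukemic_28. Hbb-y stood at 0.356, 37.6 and 2.41 CPM in the same leukaemic mice (adjusted p = 0.203). In model 2 the highest count of Hbb-bh1 was in preleukemic_633 (3233 counts). Its Bcl11a stood at 142 CPM, the lowest of the preleukaemic mice of model 2 (169.4 to 218.0 CPM in the others). The leukaemic mice of model 2 had 3, 49 and 6 counts of Hbb-bh1. The low Bcl11a of leukemic_606 (52.5 CPM) came with 49 counts of Hbb-bh1.

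**Figure D5:**
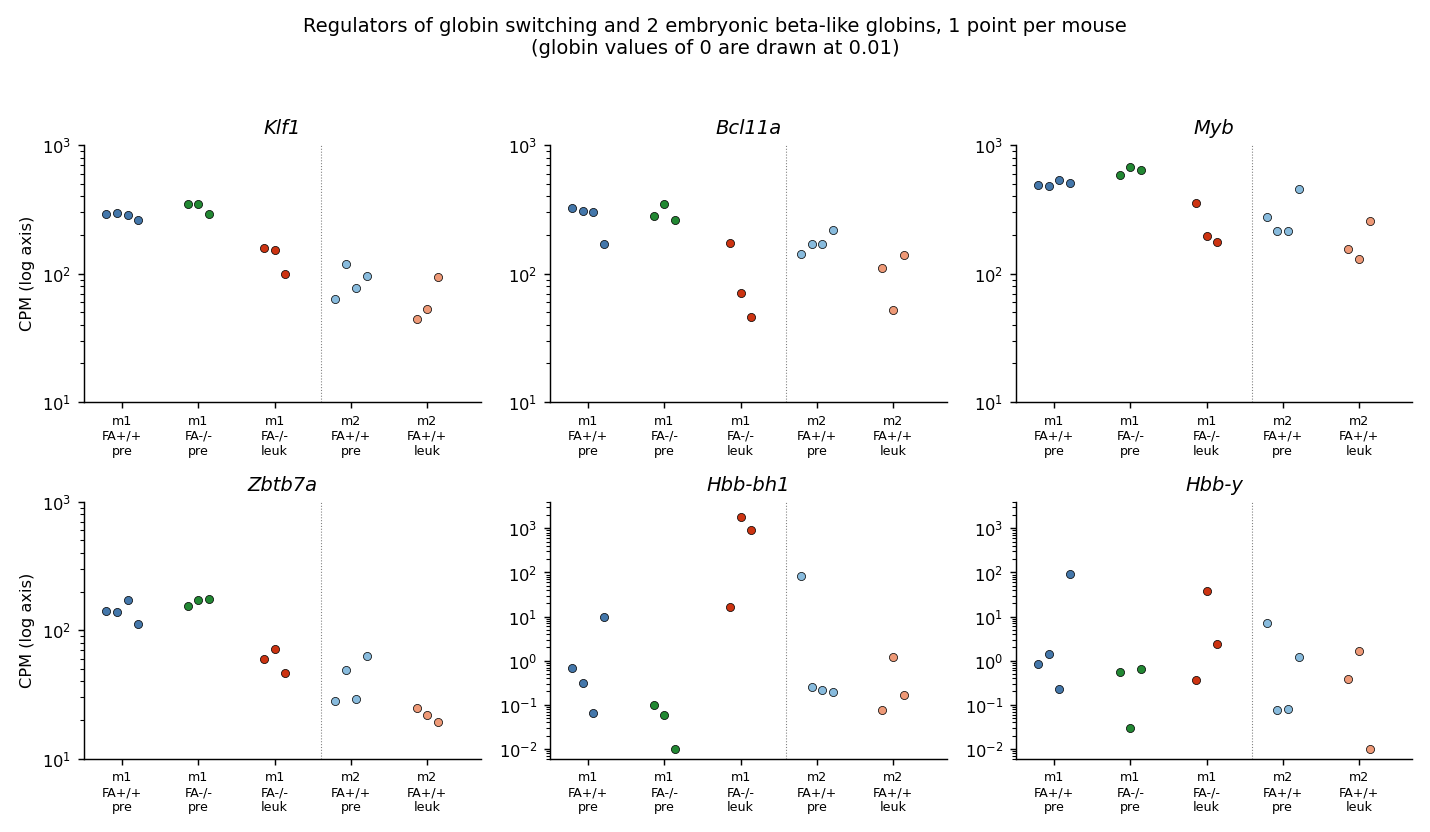
CPM of Klf1, Bcl11a, Myb, Zbtb7a and the embryonic globin genes Hbb-bh1 and Hbb-y by mouse in the 5 groups, on a log axis with 0 drawn at 0.01. The 4 regulators were lower in all 3 TgSpi1FA-/- leukaemic mice than in the TgSpi1FA-/- preleukaemic mice, and Hbb-bh1 reached 1834 and 936.5 CPM in leukemic_28 and leukemic_39.

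Markers of other cell types were read beside these results. The summed level of 12 megakaryocyte markers was 123 to 152 CPM in TgSpi1FA-/- preleukaemic and 402 to 485 CPM in TgSpi1FA-/- leukaemic mice, with 121 to 369 CPM in TgSpi1FA+/+ preleukaemic mice, and 2 of the 10 tested passed, both higher: Itga2b (3.20, adjusted p = 0.00472), at 20.6, 16.1 and 21.8 CPM and then 92.7, 243 and 203 CPM, and Vwf (2.89, adjusted p = 0.0308). Of all genes, 13.3% passed, and 1 passing marker was left without preleukemic_224, preleukemic_40 or leukemic_39. GATA1, NFE2, TAL1 and GFI1B serve megakaryocytes as well as red cells, and the part of these cells in the results was not tested. In model 2 the sum was 90.7 to 207 CPM in preleukaemic and 27.5 to 166 CPM in leukaemic mice. The 9 mast cell markers summed to 8.15 to 41.2 and 45.5 to 74.4 CPM in the TgSpi1FA-/- groups, to 19.6 to 209 CPM in TgSpi1FA+/+ preleukaemic mice, and to 31.3 to 96.1 and 160 to 212 CPM in model 2. None passed within either model, though all 7 tested in model 2 were above 0 (median log2 fold change 2.04). In the test of the difference between the models 1 of 8 passed, lower, where 4.61% of all genes passed and 1.85% passed lower. That call stood in 6 of the 17 fits with 1 library left out. The 13 myeloid markers summed to at most 4.14 CPM and the 6 B lymphoid markers to at most 0.547 CPM in any library. The 6 T lymphoid markers summed to 0.818 to 1.49 and 3.85 to 5.53 CPM in the TgSpi1FA-/- groups, nearly all of it Lck (adjusted p = 0.0293; a call lost when any 1 of preleukemic_77, preleukemic_224, preleukemic_40, leukemic_28 or leukemic_39 was left out), while Cd3d, Cd4 and Cd8a had at most 3 counts in each library of both.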

How the data were processed

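RNA from cultured erythroid blasts of 17 mice was made into TruSeq Stranded mRNA libraries (400 ng and 8 min of fragmentation for model 1, 300 ng and 2 min for model 2). The authors deposited raw read counts per gene. The submitters' processing notes name bcl2fastq 2.17.1.14, STAR 2.5.3a and HTSeq 0.6.1p1 and the builds mm10 and GRCm38. Counts were tested with edgeR 4.0.16 (R 4.3.3; filterByExpr, TMM, quasi-likelihood) over all genes, with model 1 (10 libraries) and model 2 (7) fitted separately and 1 joint fit for their difference; DESeq2 1.42.0 was an alternative. A call needed a Benjamini-Hochberg adjusted p below 0.05 and a fold change of at least 1.5, and SEs were the fold change divided by the root of F. CPM used TMM-scaled totals, and lengths were union exons of GENCODE M21 (99.804% and 99.866% of IDs matched). Scripts were tested on simulated counts. The members and gene lists were chosen with earlier results of these data known. All 10 genes were named, and of each list the genes that passed, up to 6 by size of change, and for marker and embryonic globin lists those with the highest mean. Other genes given (Gata2, Tcf3 and Lmo4) were chosen after their values were seen. Spi1 was planned only as a check, like Fanca, and was set beside the 10 genes after its values were seen. Promoter windows came from RefSeq (GRCm38.p6), which held 11 windows for 8 of the 10 genes. Genes with an SD of centred log2 CPM of 1 or more would have been matched to their most alike genes; the 10 ran from 0.28 (Gata1) to 0.89 (Bcl11a), so none were. Labels do not say more of the mice than their number, so p values measure the spread between these samples. Alternatives were DESeq2, no filter, a filter at 1 CPM in 3 libraries, only the compared groups, the pair preleukemic_445 and preleukemic_479 as 1 sample, the second count table and each library left out. Others were edgeR with the size factors of DESeq2, edgeR with robust empirical Bayes, and the main fit with an adjusted p below 0.05 as the only threshold.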

Additional observations from a re-analysis of the deposited data

Results flagged for a closer look

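Bcl11a in TgSpi1FA+/+ preleukemic_138 stood at 172 CPM, apart from the other 3 mice of its group, at 300.0 to 326 CPM. The gap to the nearest of them was 0.832 of the group's whole range, beyond Dixon's 95% limit for 4 samples. Of 20 groups of 4 mice checked over the 10 genes this was the 1 beyond it, and chance alone gives about 1 in 20. The limit takes the 4 samples as independent, while preleukemic_445 and preleukemic_479 of this group were far more alike than other pairs. The check was not repeated with that pair counted as 1 sample.

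The leukaemic change of Zfpm1 differed between the models by 1.45 on the log2 scale in the test of the difference itself (SE 0.35, edgeR adjusted p = 0.0365). The call was lost in 9 of the 17 fits with 1 library left out and without the filter on low counts (adjusted p = 0.0509). All 3 leukaemic mice of model 2 lay below all 4 preleukaemic ones, while in model 1 the TgSpi1FA-/- groups overlapped. Strain, library protocol, Fanca genotype and way of progression differ between the models, as do in part the oncogene mutations that the paper reports. These cannot be told apart.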

How the results depend on the processing

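Among single genes of the 10, 366 values under alternatives other than leaving out a library kept their direction and side of the threshold. Most of these were uncalled in both the main fit and the alternative. Of the other values, 9 lost a call, 4 gained one and 1 changed sign: Tal1 between TgSpi1FA-/- leukaemic and TgSpi1FA+/+ preleukaemic cells, -0.03 in the second count table. The cause was not tested for any of these changes.

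Between the TgSpi1FA-/- groups DESeq2 called 3099 genes, and 3 of the 10 passed with only the compared groups fitted. Leaving out 1 library gave 414 to 2319 genes and 2 to 5 of the 10, with 2 without preleukemic_224. Between TgSpi1FA-/- leukaemic and TgSpi1FA+/+ preleukaemic cells DESeq2 called 2245 genes and 4 of the 10, the fit of only the compared groups called 1 of the 10, the pair as 1 sample gave 112 genes and 0 of the 10, the second table gave 267 genes and 0, and leaving out 1 library 53 to 1911 genes and 0 to 4. Between the preleukaemic groups 4 genes were called without a filter, 256 by DESeq2 and 1 to 16 with 1 library left out. In model 2 DESeq2 called 470 genes and 1 of the 10, and leaving out 1 library gave 0 to 1 genes. For the difference between the models, 279 genes and 0 of the 10 passed without a filter, 2037 genes by DESeq2, 293 genes with the pair as 1 sample, and 1 to 1359 genes and 0 to 1 of the 10 with 1 library left out.

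Uncalled values that changed sign with 1 library left out ran, between the preleukaemic groups, from -0.2 to 0 for Nfe2, -0.1 to 0.14 for Zfpm1, -0.06 to 0.2 for Bcl11a and -0.16 to 0.15 for Gata1; from -0.16 to 0.16 for Tal1 between TgSpi1FA-/- leukaemic and TgSpi1FA+/+ preleukaemic cells; from -0.67 to 0.48 for Gfi1b in model 2; and, for the difference between the models, from -0.3 to 0.07 for Nfe2, -0.02 to 0.47 for Ldb1, -0.82 to 0.25 for Lmo2 and -0.5 to 0 for Tal1. No paired analysis was possible because the groups share no replicate numbers. Each of the 10 genes had at least 1238 counts in every library, and groups of 3 or 4 mice limit these tests.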
